A study of Homo sapiens with 12 samples.

Results

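The transforming growth factor beta (TGF-beta) genes described here are 9 of the 58302 genes in the deposited expression table, found by gene name. They are the ligand genes TGFB1, TGFB2 and INHBA, the receptor genes TGFBR1 and TGFBR2, the signal transducers SMAD2 and SMAD3, the inhibitor SMAD7 and the target gene TGFBI. Their expression was measured by RNA sequencing in BxPC-3 and CFPAC-1, lines of human pancreatic ductal adenocarcinoma, and in 2 gemcitabine (GEM)-resistant derivatives, BxPC-3-GR from the first and CFPAC-1-GR from the second, with 3 libraries per line and 12 in all. GEM is a nucleoside analogue, and each resistant line is a single population that grew out of its parental line under stepwise rising GEM, so a line is 1 selection and its libraries do not sample other selections. The sample records describe BxPC-3 and CFPAC-1 as drug-sensitive with epithelial morphology, BxPC-3-GR as resistant with mesenchymal morphology and CFPAC-1-GR as resistant with epithelial morphology. All cells were harvested at 80% confluence without any added TGF-beta that the records mention, and whether GEM was present at harvest is not given in the sources used here. The records name 1 medium for all lines whereas the methods name another for CFPAC-1, so line and medium cannot be told apart in comparisons between BxPC-3 and CFPAC-1.

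TGF-beta ligands are secreted in a latent form, released by integrins and proteases, and bound by the type II receptor TGFBR2, which then activates the type I receptor TGFBR1. The activated receptor phosphorylates SMAD2 and SMAD3, which join SMAD4 and move to the nucleus, where SMAD7 is among the induced genes and feeds back to block the receptor. INHBA encodes the subunit of activin A, which signals through related receptors to the same SMADs. TGFBI encodes an extracellular matrix protein named for its induction by TGF-beta. In the pancreas the pathway is known for restraining the growth of epithelial cells, for driving epithelial-mesenchymal transition and for the frequent loss of SMAD4 in ductal adenocarcinoma.

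Each of the 3 ligand genes was called different in 2 or more of the comparisons below, before the correction for base composition described there. A RefSeq promoter window of each is therefore printed here, from 250 bases before to 50 bases after an annotated start on GRCh38.p14. The windows are chr1:218345086-218345385 on the plus strand for TGFB2, chr7:41703041-41703340 on the minus strand for INHBA and chr19:41353873-41354172 on the minus strand for TGFB1. Those of TGFB2 and INHBA do not hold the outermost start of the measured gene, which is chr1:218346235 for TGFB2 and chr7:41705834 for INHBA. Capitals mark the short SMAD-binding site CAGAC, also searched as GTCTG, its form on the other strand.
TGFB2: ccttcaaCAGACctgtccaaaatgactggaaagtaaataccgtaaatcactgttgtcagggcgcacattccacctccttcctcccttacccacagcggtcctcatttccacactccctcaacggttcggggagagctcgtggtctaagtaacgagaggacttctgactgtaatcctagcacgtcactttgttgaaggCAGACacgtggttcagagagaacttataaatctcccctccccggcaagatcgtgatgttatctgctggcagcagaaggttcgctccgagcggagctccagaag
INHBA: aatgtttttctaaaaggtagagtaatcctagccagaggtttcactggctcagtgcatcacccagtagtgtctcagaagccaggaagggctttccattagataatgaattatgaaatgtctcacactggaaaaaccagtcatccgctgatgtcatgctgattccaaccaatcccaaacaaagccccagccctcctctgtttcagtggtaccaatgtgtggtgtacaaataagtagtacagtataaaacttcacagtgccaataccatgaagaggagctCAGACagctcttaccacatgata
TGFB1: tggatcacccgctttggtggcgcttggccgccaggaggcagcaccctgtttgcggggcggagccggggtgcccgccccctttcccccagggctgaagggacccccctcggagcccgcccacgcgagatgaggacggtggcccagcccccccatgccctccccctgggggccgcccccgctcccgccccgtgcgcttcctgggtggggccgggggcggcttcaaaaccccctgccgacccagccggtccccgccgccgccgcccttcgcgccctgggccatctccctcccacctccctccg
A site this short is common, and 45.3% of all 35116 promoter windows of this length held it on either strand. The TGFB1 window was also the richest of these in G and C, with a GC content of 77.3% against 51.7% for TGFB2 and 43.3% for INHBA. All 9 genes matched RefSeq with 24 windows, of which 11 held the short site. Of the same 24 windows, 2 held the AP-1 site TGANTCA, 1 of TGFBR2 and 1 of SMAD3, against 7.71% of all windows, and the palindromic SMAD site GTCTAGAC was found in none of them and in 0.202% of all windows.

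The genes lie on 8 chromosomes of GRCh38. TGFB1 (ENSG00000105329) spans chr19:41301587-41353911, TGFB2 (ENSG00000092969) chr1:218346235-218444619, INHBA (ENSG00000122641) chr7:41667168-41705834 and TGFBI (ENSG00000120708) chr5:136028895-136063818. The receptor genes TGFBR1 (ENSG00000106799) and TGFBR2 (ENSG00000163513) span chr9:99104038-99154192 and chr3:30606502-30694142. SMAD2 (ENSG00000175387) and SMAD7 (ENSG00000101665) lie on chromosome 18 and SMAD3 (ENSG00000166949) on chromosome 15. Exons of TGFB2 share 26.6% of their bases with TGFB2-OT1 on the same strand, and those of TGFB1 share 6.64% with HNRNPUL1 on the opposite strand. TGFB2-OT1 reached at most 5.61 FPKM in a library and HNRNPUL1 at most 48.4. How far this overlap affects the values of TGFB2 and TGFB1 was not measured.

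Libraries of the same line agreed closely, with Spearman correlations across genes between 0.966 and 0.981, and the depth implied by the steps between low values was 12600000 to 25100000 fragments. The epithelial identity of the lines was visible in the ductal markers KRT7, KRT8, KRT18, KRT19, EPCAM, CDH1 and MUC1, of which 6 in BxPC-3 and 7 in each other line had a mean of at least 1 FPKM (a fragment count divided by gene length and library depth). Their summed FPKM was 838 to 917 in BxPC-3, 949 to 1016 in BxPC-3-GR, 2645 to 2920 in CFPAC-1, and in CFPAC-1-GR it was 1162 to 1354. None of 6 fibroblast, 4 endothelial or 5 acinar and islet markers reached 1 FPKM in any line, and the fibroblast markers summed to at most 0.978 FPKM in any library. Of 5 leukocyte markers, PTPRC was listed at 0 in all 12 libraries, while CD68, CD14 and LYZ brought the sum to 38.6 to 48.5 FPKM in CFPAC-1 and, in its resistant line, to between 15.1 and 18.2, against at most 4.45 in the BxPC-3 lines, and the part of this difference in the results was not tested. Because whole cultures were measured, more cells that express a gene and more RNA per cell cannot be told apart.

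The parental CFPAC-1 libraries stood apart by base composition. The log2 fold change (log2FC) of CFPAC-1-GR against CFPAC-1 was lower for genes richer in G and C (Spearman's rho = -0.777 across 12030 genes), and that of CFPAC-1 against BxPC-3 was higher for them (rho = 0.628 across 11821 genes). Without CFPAC-1 the relation was close to 0, at 0.0388 for BxPC-3-GR against BxPC-3 and -0.0189 for CFPAC-1-GR against BxPC-3-GR. The genes of a tested pair of libraries share their depth and base composition, so these values are descriptions. TGFB1 is rich in G and C over its longest transcript (63.5%), as is SMAD7 (58.7%), whereas TGFB2 (38.9%), INHBA (39.1%), TGFBR1 (39.0%) and SMAD2 (40.2%) are poor in them and TGFBR2 (47.4%), SMAD3 (50.4%) and TGFBI (50.6%) lie near the median of 49.2% among genes tested in the CFPAC-1 pair. A second log2FC, after a spline correction of the libraries for GC content and gene length, is therefore given beside the log2FC values that use CFPAC-1. Where it decided a call, its value with the minimum mean FPKM for a tested gene set at 0.1 in place of 1 is given too.

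Among the ligands, TGFB1 was highest in CFPAC-1 and TGFB2 was highest in CFPAC-1-GR. TGFB1, the broadly expressed isoform, had 39.5, 39.9 and 36.6 FPKM in BxPC-3, 29.2, 28.7 and 28.4 in BxPC-3-GR, then 83.4, 100.0 and 102 in CFPAC-1 and 21.1, 22.8 and 23.3 in CFPAC-1-GR. The libraries of the lines did not overlap, and their order from low to high was CFPAC-1-GR, BxPC-3-GR, BxPC-3 and CFPAC-1, with means of 22.4 ± 1.17, 28.8 ± 0.397, 38.7 ± 1.83 and 95.2 ± 10.3 FPKM (SD, n = 3 each). TGFB2, an isoform with strong roles in development, had 4.47, 4.51 and 5.10 FPKM in BxPC-3, 6.19, 5.75 and 5.99 in BxPC-3-GR, then 29.3, 32.2 and 30.2 in CFPAC-1 and 43.1, 46.4 and 53.4 in CFPAC-1-GR. Both CFPAC-1 lines lay far above both BxPC-3 lines, and the libraries of every pair of lines were separate.

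INHBA was the ligand gene whose level moved in opposite directions in the 2 resistant lines. It had 3.87, 4.18 and 3.46 FPKM in BxPC-3 and 1.21, 1.47 and 1.03 in BxPC-3-GR. In the other pair it had 0.530, 0.464 and 0.470 FPKM in CFPAC-1 and 5.08, 6.54 and 6.99 in CFPAC-1-GR. CFPAC-1 was thus the lowest line and CFPAC-1-GR the highest, with BxPC-3-GR and BxPC-3 between them and no overlap between any 2 lines.

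The type II receptor was well expressed in every line, and the type I receptor was low and uneven. TGFBR2 had 29.9, 30.9 and 30.7 FPKM in BxPC-3, 21.1, 21.1 and 20.3 in BxPC-3-GR, then 12.7, 13.2 and 12.7 in CFPAC-1 and 28.1, 29.3 and 30.7 in CFPAC-1-GR. CFPAC-1 was lowest and BxPC-3-GR next, while CFPAC-1-GR and BxPC-3 overlapped at the top. TGFBR1 had 1.23, 1.36 and 2.47 FPKM in BxPC-3, 1.07, 1.12 and 2.83 in BxPC-3-GR, then 0.188, 0.189 and 0.173 in CFPAC-1 and 0.920, 0.779 and 2.02 in CFPAC-1-GR. Replicate 3 stood above the other replicates in every line but CFPAC-1, so BxPC-3, BxPC-3-GR and CFPAC-1-GR could not be ordered for TGFBR1, and only CFPAC-1 lay clear of them.

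SMAD3 was expressed at a similar level in all lines and SMAD2 was low. SMAD3 had 30.3, 31.5 and 33.8 FPKM in BxPC-3, 31.9, 31.4 and 32.8 in BxPC-3-GR, then 28.0, 30 and 33.2 in CFPAC-1 and 32.4, 38.8 and 40.8 in CFPAC-1-GR, and neighbouring lines overlapped throughout this order. SMAD2 had 1.28, 1.27 and 1.25 FPKM in BxPC-3, 1.44, 1.39 and 1.47 in BxPC-3-GR, then 0.300, 0.304 and 0.291 in CFPAC-1 and 1.09, 0.916 and 1.04 in CFPAC-1-GR. Here CFPAC-1 was lowest and the libraries of the 4 lines did not overlap. FPKM is a level per length, and the joined exons of SMAD2 in the annotation run to 36366 bases against 9113 for SMAD3, so the gap between these genes depends on the length the authors used, which is not given in the sources used here.

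SMAD4, the common partner of SMAD2 and SMAD3, was at or near 0 in all lines. It was listed at 0 in every library of both resistant lines, at 0.00226, 0 and 0.00690 FPKM in BxPC-3, and at 0.00404, 0.0125 and 0.00613 FPKM in CFPAC-1. These levels were under the minimum for a test, and both parental lines are known to lack SMAD4.

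The feedback inhibitor SMAD7 stayed near 1 FPKM, and TGFBI followed the parental origin of the lines. SMAD7 had 0.759, 0.774 and 0.704 FPKM in BxPC-3, 1.19, 1.30 and 1.25 in BxPC-3-GR, then 0.847, 0.987 and 0.938 in CFPAC-1 and 1.16, 1.16 and 1.15 in CFPAC-1-GR, so both resistant lines lay above both parental lines. TGFBI had 31.7, 34.3 and 30.8 FPKM in BxPC-3, 21.3, 19.0 and 22.4 in BxPC-3-GR, then 80.1, 84.2 and 86.9 in CFPAC-1 and 48.4, 60.5 and 58.1 in CFPAC-1-GR. In each pair the resistant libraries lay below the parental ones, and both CFPAC-1 lines lay above both BxPC-3 lines.

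**Figure D1:**
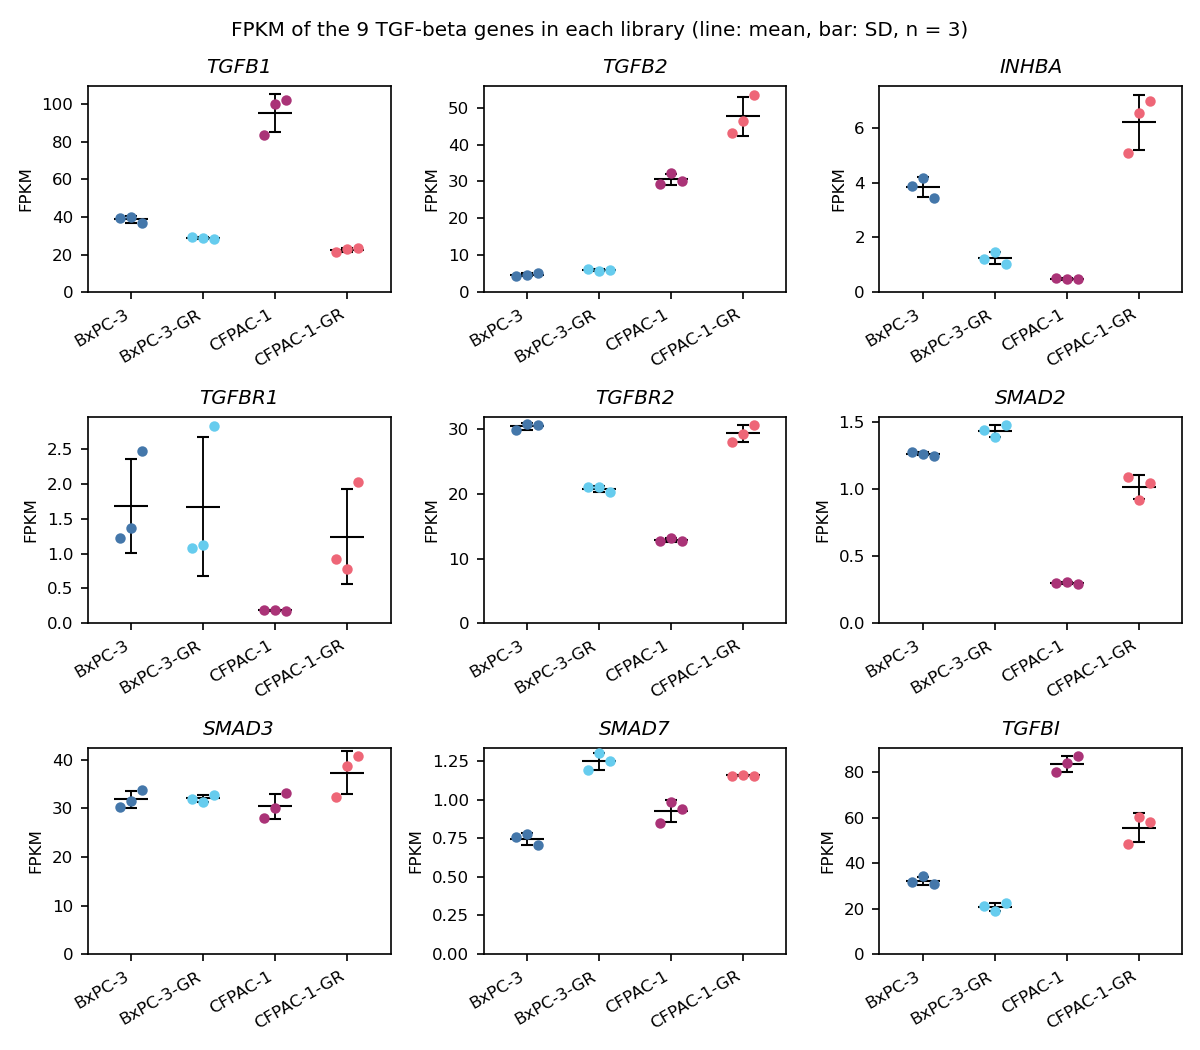
FPKM (vertical axis, linear, from 0) of each of the 9 genes in the 3 libraries of each line, 1 panel per gene. Points are libraries, the long line is the mean and the bar is the SD (n = 3). TGFB1 reaches 83.4 to 102 FPKM in CFPAC-1 and at most 39.9 elsewhere, INHBA is lowest in CFPAC-1 and highest in CFPAC-1-GR, and TGFBR1 shows 1 high library in 3 of the lines.

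The make-up of the TGF-beta ligand messages differed between the lines. TGFB2 made up 10.1%, 10.0% and 12.1% of the summed FPKM of TGFB1, TGFB2 and TGFB3 in the BxPC-3 libraries and 14.8%, 14.2% and 14.2% in BxPC-3-GR. The share was 25.9%, 24.3% and 22.8% in CFPAC-1 and 66.4%, 66.2% and 69.1% in CFPAC-1-GR, which was the 1 line in which TGFB2 lay above TGFB1 by deposited level per length. The means were 10.8% ± 1.19, 14.4% ± 0.349, 24.3% ± 1.57 and 67.3% ± 1.60 (SD, n = 3 each). In each of the 4 comparisons the shares did not overlap (2-sided exact permutation test, p = 0.1, which is the lowest value possible with 3 against 3). The share sets a gene rich in G and C (TGFB1) against a poor one (TGFB2), and with the correction for GC content and length it was 51.5%, 49.3% and 47.5% in CFPAC-1 and 55.9%, 60.4% and 62.1% in CFPAC-1-GR. The means with the correction were 7.03% ± 0.483 in BxPC-3, 10.5% ± 0.325 in BxPC-3-GR, 49.4% ± 2.03 in CFPAC-1 and 59.4% ± 3.17 in CFPAC-1-GR (SD, n = 3 each), so the gap between the CFPAC-1 lines was much narrower than in the deposited values. In every line most of the remainder was TGFB1. The third isoform, TGFB3, was highest in BxPC-3-GR, at 6.51, 6.18 and 7.81 FPKM against at most 0.497 in BxPC-3.

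**Figure D2:**
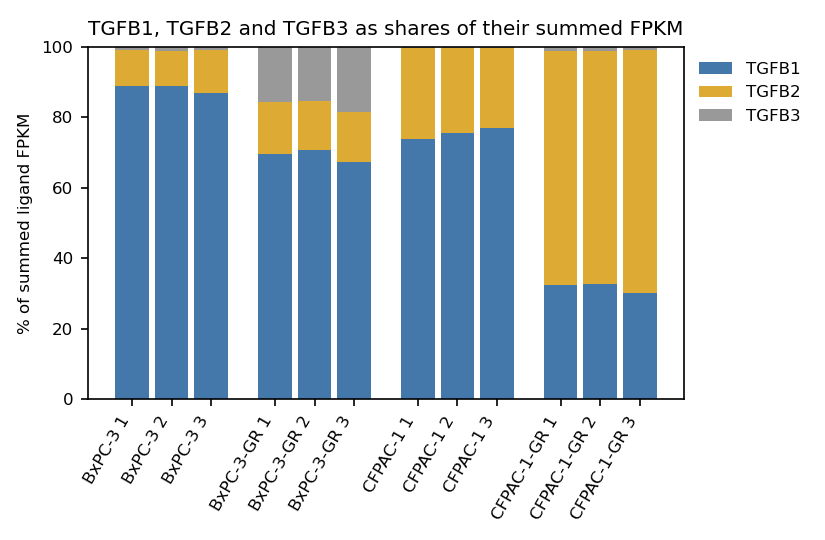
Shares of TGFB1, TGFB2 and TGFB3 in their summed FPKM (vertical axis, percent, 0 to 100) for each of the 12 libraries, 1 stacked bar per library. The TGFB2 part covers 66.2% to 69.1% of the bar in CFPAC-1-GR and at most 25.9% in any other line, and the TGFB3 part is widest in BxPC-3-GR.

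In BxPC-3-GR, the comparison of a resistant line with the parental line asked which of these genes changed with acquired GEM resistance, and INHBA was called. Genes were compared with limma on log2(FPKM + 1), a scale that understates the change of low genes, and were called with a Benjamini-Hochberg adjusted p below 0.05 over all genes tested and an absolute log2FC above 1. INHBA fell 3.10-fold in mean FPKM, from 3.84 ± 0.364 to 1.24 ± 0.222 (SD, n = 3 per line), with a log2FC of -1.11 (standard error 0.0938, limma adjusted p = 0.000177). It was the 1 gene called of 8 tested, where 7.76% of all 11710 tested genes were called, 4.14% up and 3.62% down.

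The other genes of this pair had smaller differences. TGFB1 had a log2FC of -0.41 (limma adjusted p = 0.00102), TGFBR2 one of -0.53 (adjusted p = 0.000208) and TGFBI one of -0.61 (adjusted p = 0.000935), and all were lower in every BxPC-3-GR library. TGFB2 had a log2FC of 0.29 (limma adjusted p = 0.00797) and was higher in every BxPC-3-GR library. An adjusted p below 0.05 was reached by 57.7% of all tested genes in this comparison and by 5 of the 8, and the libraries did not overlap for 66.1% of all tested genes and for 6 of the 8. SMAD2 (log2FC 0.10, limma adjusted p = 0.0894), SMAD3 (0.01, adjusted p = 0.911) and TGFBR1 (-0.04, adjusted p = 0.922) did not pass. TGFBR1 went from -0.33 to 0.16 with each library left out in turn, turning to 0.16 without BxPC-3 replicate 3, to 0.12 without BxPC-3-GR replicate 1 and to 0.10 without BxPC-3-GR replicate 2. SMAD7 was below the minimum mean of 1 FPKM, and with a minimum of 0.1 FPKM its log2FC was 0.37 (limma adjusted p = 0.00155).

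In CFPAC-1-GR, TGFB1 fell while INHBA and TGFBR2 rose against CFPAC-1. TGFB1 was 4.25-fold lower in mean FPKM, at 22.4 ± 1.17 against 95.2 ± 10.3 (SD, n = 3 per line), with a log2FC of -2.04 (standard error 0.0970, limma adjusted p = 6.35e-06). INHBA was 12.7-fold higher, at 6.20 ± 0.996 against 0.488 ± 0.0363, a log2FC of 2.27 (standard error 0.110, limma adjusted p = 6.54e-06). TGFBR2 was 2.28-fold higher, at 29.4 ± 1.33 against 12.9 ± 0.304, a log2FC of 1.13 (standard error 0.0656, limma adjusted p = 9.33e-06). These were 3 of the 7 genes tested, where 32.2% of all 12051 tested genes were called, 20.5% up and 11.7% down.

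The correction for GC content and length bore on each of these values. It left INHBA called, with a log2FC of 1.13 (limma adjusted p = 0.000693), and moved TGFB1 to -0.96 and TGFBR2 to 0.97, both under the log2FC criterion. With a minimum of 0.1 FPKM, the correction left all 3 called, TGFB1 at -1.25 (limma adjusted p = 0.000121), INHBA at 1.46 (adjusted p = 0.000255) and TGFBR2 at 1.04 (adjusted p = 6.76e-05). Median-of-ratios scaling of the libraries also took TGFBR2 under it (0.98). TGFB2 had a log2FC of 0.62 (limma adjusted p = 0.000729) with every CFPAC-1-GR library above every CFPAC-1 library, and the correction turned it to -0.39 (adjusted p = 0.0198). TGFBI, whose GC content is near the median, kept its value, at -0.59 (limma adjusted p = 0.00119) before and -0.58 after the correction.

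SMAD3 and SMAD7 of this pair had small log2FC values before the correction, and those of TGFBR1 and SMAD2 depended on the pseudocount. SMAD3 had 0.28 (limma adjusted p = 0.0461) and 0.23 after the correction, with the libraries of the lines overlapping. SMAD7 had 0.16 (adjusted p = 0.0437) and 0.93 after the correction (limma adjusted p = 7.25e-05), under the log2FC criterion. TGFBR1 and SMAD2 were below the minimum mean in the CFPAC-1 lines. In mean FPKM TGFBR1 was 6.78-fold and SMAD2 3.41-fold higher in CFPAC-1-GR. With a minimum of 0.1 FPKM, TGFBR1 had a log2FC of 0.88 (limma adjusted p = 0.00725) and SMAD2 one of 0.63 (adjusted p = 0.000148), and with the correction at that minimum these were 0.11 and -0.29. With a pseudocount of 0.1 at that minimum and no correction, both passed the criterion, at 2.13 (limma adjusted p = 0.00269) and 1.48 (adjusted p = 0.000116). The correction was fitted over all genes on log2(FPKM + 1), which understates the change of low genes. For TGFBR1, SMAD2 and SMAD7 it can therefore overshoot, here and in the other comparisons that use CFPAC-1. The sign after it is uncertain for these genes. All 7 tested genes had an adjusted p below 0.05, as had 79.6% of all tested genes, and 6 of the 7 did not overlap, against 82.1% of all.

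The parental lines differed in both TGF-beta ligand genes, in INHBA, in TGFBR2 and in TGFBI. This comparison shares its libraries with those above. TGFB2 was 6.51-fold higher in CFPAC-1 than in BxPC-3, with a log2FC of 2.47 (standard error 0.0686, limma adjusted p = 2.88e-07), and the correction raised this to 3.58. TGFBI was 2.59-fold higher, with a log2FC of 1.35 (limma adjusted p = 2.21e-06) and 1.31 after the correction, and TGFBR2 was 2.36-fold lower, with a log2FC of -1.18 (adjusted p = 1.31e-06) and -1.05 after it. The calls of TGFB1 and INHBA were lost with the correction. TGFB1 had a log2FC of 1.27 (limma adjusted p = 1.62e-05) and 0.14 after the correction (adjusted p = 0.168), and INHBA had -1.70 (adjusted p = 1.22e-06) and -0.44 after it. At a minimum of 0.1 FPKM the corrected values were 0.42 and -0.80, also under the criterion.

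In all, 5 of the 6 genes tested between the parental lines were called, 3 higher and 2 lower in CFPAC-1, where 44.5% of all 11842 tested genes were called, 19.8% higher and 24.7% lower. Those 5 also had libraries that did not overlap, as had 85.6% of all tested genes. SMAD3, the remaining gene, had a log2FC of -0.07 (limma adjusted p = 0.453) and -0.04 after the correction. With a minimum of 0.1 FPKM, TGFBR1 had -1.15 (limma adjusted p = 0.000987), SMAD2 -0.80 (adjusted p = 9.19e-06) and SMAD7 0.14 (adjusted p = 0.0492), and the correction at that minimum gave -0.30, 0.07 and -0.48. In mean FPKM TGFBR1 was 9.21-fold and SMAD2 4.23-fold lower in CFPAC-1. Leaving out any 1 of the CFPAC-1 replicates 1, 2 and 3 took a low value out of the mean of TGFBR1. This alone brought it over the minimum of 1 FPKM, through the BxPC-3 libraries. It was then called, with a log2FC between -1.16 and -1.15, which adds no separate evidence.

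Between the resistant lines, which do not involve the CFPAC-1 libraries, TGFB2, INHBA and TGFBI were higher in CFPAC-1-GR. TGFB2 was 7.97-fold higher than in BxPC-3-GR, with a log2FC of 2.80 (standard error 0.0898, limma adjusted p = 9.53e-07). INHBA was 5.01-fold higher, with a log2FC of 1.68 (standard error 0.125, limma adjusted p = 3.92e-05), and TGFBI was 2.67-fold higher, with a log2FC of 1.37 (standard error 0.107, adjusted p = 4.82e-05). These were 3 of 9 tested, where 17.1% of all 12330 tested genes were called, 10.3% up and 6.8% down, and all 3 kept their call after the correction.

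The other genes differed less between the resistant lines. TGFB1 had a log2FC of -0.35 (limma adjusted p = 0.00269) and SMAD2 one of -0.27 (adjusted p = 0.00745), both lower in CFPAC-1-GR, and TGFBR2 one of 0.48 (adjusted p = 0.000548). SMAD3 (0.21, limma adjusted p = 0.0927), SMAD7 (-0.06, adjusted p = 0.369) and TGFBR1 (-0.24, adjusted p = 0.512) did not pass. The value of TGFBR1 turned to 0.05 without BxPC-3-GR replicate 3. An adjusted p below 0.05 was reached by 6 of the 9, against 65.3% of all tested genes, and the libraries of 7 of the 9 did not overlap, against 71% of all.

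**Figure D3:**
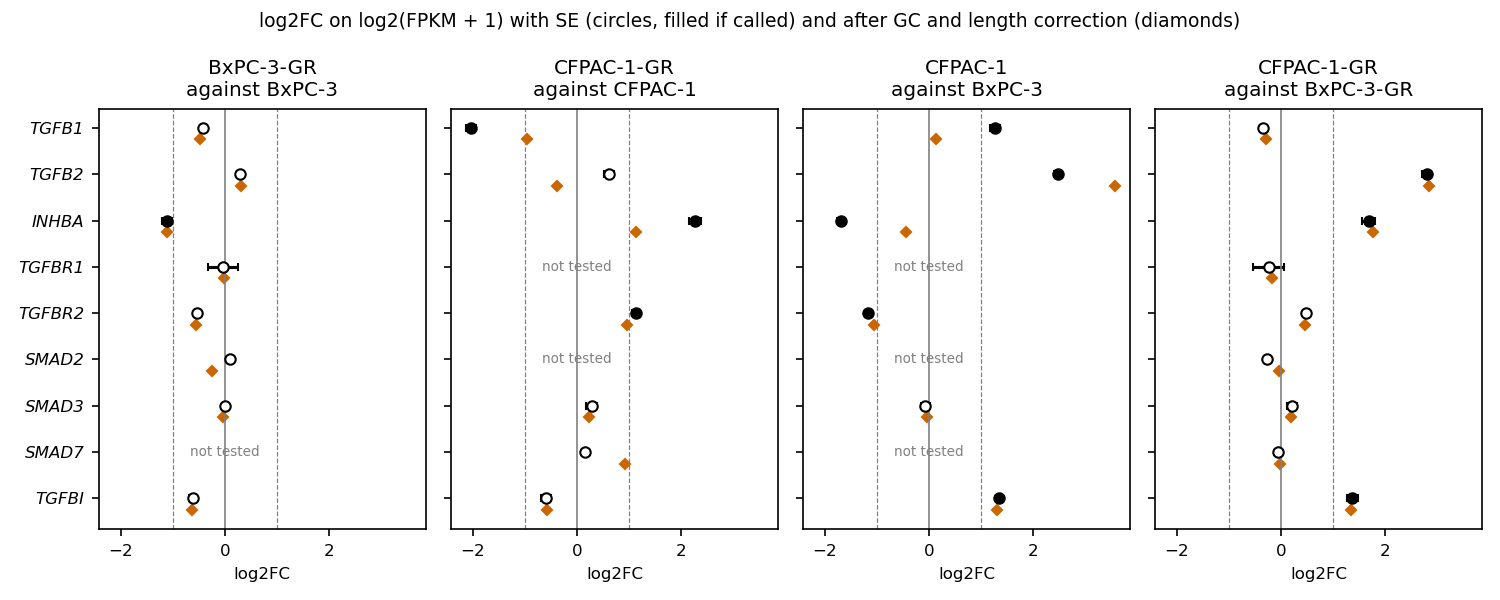
The log2FC on log2(FPKM + 1) (horizontal axis) of the 9 genes (rows) in the 4 comparisons (panels). Circles with SE bars are the values as fitted, filled where the gene was called, and orange diamonds are the values after the GC content and length correction; dashed lines mark a log2FC of -1 and 1. Circles and diamonds lie apart for TGFB1, TGFB2 and INHBA in the middle panels, which use CFPAC-1 (TGFB1 -2.04 and -0.96 in CFPAC-1-GR). They also lie apart for SMAD7 in CFPAC-1-GR (0.16 and 0.93). In the outer panels they lie closer together for most genes, but SMAD2 in BxPC-3-GR has 0.10 and -0.25.

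The responses of the lines were compared by an interaction term over all 12 libraries, as the log2FC of CFPAC-1-GR against CFPAC-1 minus that of BxPC-3-GR against BxPC-3. INHBA differed most, by 3.38 (standard error 0.150, limma adjusted p = 1.31e-08), and by 2.30 after the correction. TGFBR2 differed by 1.66 (standard error 0.0706, limma adjusted p = 1.04e-08) and 1.53 after the correction, being lower in BxPC-3-GR and higher in CFPAC-1-GR than in the parental line. TGFB1 was lower in both resistant lines, by 1.62 more in CFPAC-1-GR (interaction -1.62, limma adjusted p = 2.15e-07), and the correction left -0.45, or -0.77 at a minimum of 0.1 FPKM, both under the criterion. These 3 of 9 tested genes were called, where 38% of all 12210 tested genes were, 23.6% up and 14.4% down, and 7 of the 9 had an adjusted p below 0.05, as had 76.6% of all.

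TGFBI, by contrast, had an interaction of 0.02 (standard error 0.128, limma adjusted p = 0.892) and 0.06 after the correction, with log2FC values of -0.61 and -0.59 in the pairs. Median-of-ratios scaling turned the interaction of TGFBI to -0.29. For the remaining genes the sign of the interaction also turned with the correction or a scaling. TGFB2 went from 0.33 to -0.65, TGFBR1 from 0.92 to -0.13, SMAD2 from 0.53 to -0.44 and SMAD7 from -0.20 to 0.65 with the correction, and SMAD3 went from 0.28 to -0.03 with median-of-ratios scaling. TGFBR1 also passed the criterion without BxPC-3 replicate 1 (1.04), BxPC-3-GR replicate 3 (1.21), CFPAC-1-GR replicate 1 (1.01) or CFPAC-1-GR replicate 2 (1.06).

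Of 87 other genes of the pathway, 56 were tested in BxPC-3-GR and 11 were called, 6 up and 5 down (19.6%, against 7.76% of all tested genes). Their median log2FC was 0.13, and that of all tested genes -0.05. TGFB3 rose by a log2FC of 2.43 (standard error 0.0864, limma adjusted p = 8.25e-06). ITGB8, a subunit of the integrin that activates latent TGF-beta, went from 2.04, 2.23 and 2.65 to 12, 11.3 and 12.3 FPKM, a log2FC of 1.96 (limma adjusted p = 1.49e-05). Of 10 tested genes of latency and activation, 3 were called, all up, ITGB8 with the latent TGF-beta binding proteins LTBP1 (1.33) and LTBP3 (1.20). All 10 had a limma adjusted p below 0.05, as had 57.7% of all tested genes. LTBP3 was under the criterion with the correction (0.98), and over it with the correction at a minimum of 0.1 FPKM (1.03). LTBP4 (-0.76), the protease gene FURIN (-0.43) and THBS1 (-0.31), which encodes an activator of latent TGF-beta, were lower. The type II activin receptor ACVR2B had a log2FC of 1.38 (limma adjusted p = 0.00188), with 0.886 FPKM in BxPC-3 replicate 3 against 0.106 and 0.128 in the other BxPC-3 libraries.

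Genes that fell in BxPC-3-GR included a co-receptor, an antagonist and targets. TGFBR3, the co-receptor betaglycan, had a log2FC of -1.28 (limma adjusted p = 1.13e-05), PLAUR, the urokinase receptor, one of -1.28 (adjusted p = 0.000123) and FST, which encodes the activin antagonist follistatin, one of -1.23 (adjusted p = 0.000542). Of 21 tested targets, 1 rose and 2 fell, 14.3% against 7.76% of all tested genes. With the correction 1 rose and 4 fell, and before it 14 of the 21 had a limma adjusted p below 0.05, against 57.7% of all.

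In CFPAC-1-GR, 56 of the 87 were tested and 21 were called, 14 up and 7 down (37.5%, against 32.2% of all tested genes). Their median log2FC was 0.20, against 0.13 over all tested genes. ITGB8 went from 1.65, 1.80 and 1.49 to 22.8, 15.5 and 20.2 FPKM, a log2FC of 2.94 (limma adjusted p = 6.29e-06) and 1.60 after the correction. INHBB, which encodes the other main activin subunit, went from 1.69, 1.76 and 2.04 to 17.1, 22.8 and 21.6 FPKM, a log2FC of 2.92 (limma adjusted p = 6.25e-06) and 3.67 after the correction. ITGAV, the integrin partner of ITGB8, had a log2FC of 2.25 (limma adjusted p = 2.48e-05) and 1.08 after the correction. INHBB was listed at 0 in BxPC-3 and at most at 0.116 FPKM in BxPC-3-GR, so both activin subunit genes were at their highest in CFPAC-1-GR.

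The 7 pathway genes called down in CFPAC-1-GR were under the criterion with the correction, and 1 of them, ID1, was over it with the correction at a minimum of 0.1 FPKM. ID1, a target of BMP and TGF-beta signaling, had a log2FC of -1.99 (limma adjusted p = 7.20e-06), -0.97 after the correction and -1.28 after it at the lower minimum (adjusted p = 0.000108). FSTL3, an activin antagonist related to follistatin, had -1.63 (limma adjusted p = 5.34e-05) and -0.51 after it, and LTBP3 had -1.19 (adjusted p = 5.01e-05) and -0.38 after it, or -0.83 and -0.69 at the lower minimum. With the correction, 5 of the pathway genes were called and all 5 were up, where 9.43% of all genes were called and 75% of those were up. The share of pathway genes was near that of all genes at this minimum of 1 FPKM. At the lower minimum, 10 pathway genes were called up and 1 down, of 75 tested. This was a larger share than the 8.33% of all genes called there, of which 78.9% were up. Among the 10 was INHA, with at most 0.387 FPKM in these lines and overlapping libraries. Its log2FC at that minimum was 0.18 before the correction (limma adjusted p = 0.266) and 1.01 after it. Of the 5 called with the correction at a minimum of 1 FPKM, INHBB, ITGB8, ITGAV and THBS1 were among the 21 called before it. COL1A1 was not (log2FC 0.69, and 1.39 after the correction), at means of 1.49 FPKM in CFPAC-1 and 3.02 in CFPAC-1-GR. Of the 6 tested SMADs and SMAD partners, 3 were called up without the correction, where 20.5% of all tested genes were, and 0 with it. At the lower minimum the correction left ZFYVE9, a SMAD anchor (1.11), and TRIM33, a SMAD partner (1.05), called up. All 6 had a limma adjusted p below 0.05 without the correction, as had 79.6% of all.

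**Figure D4:**
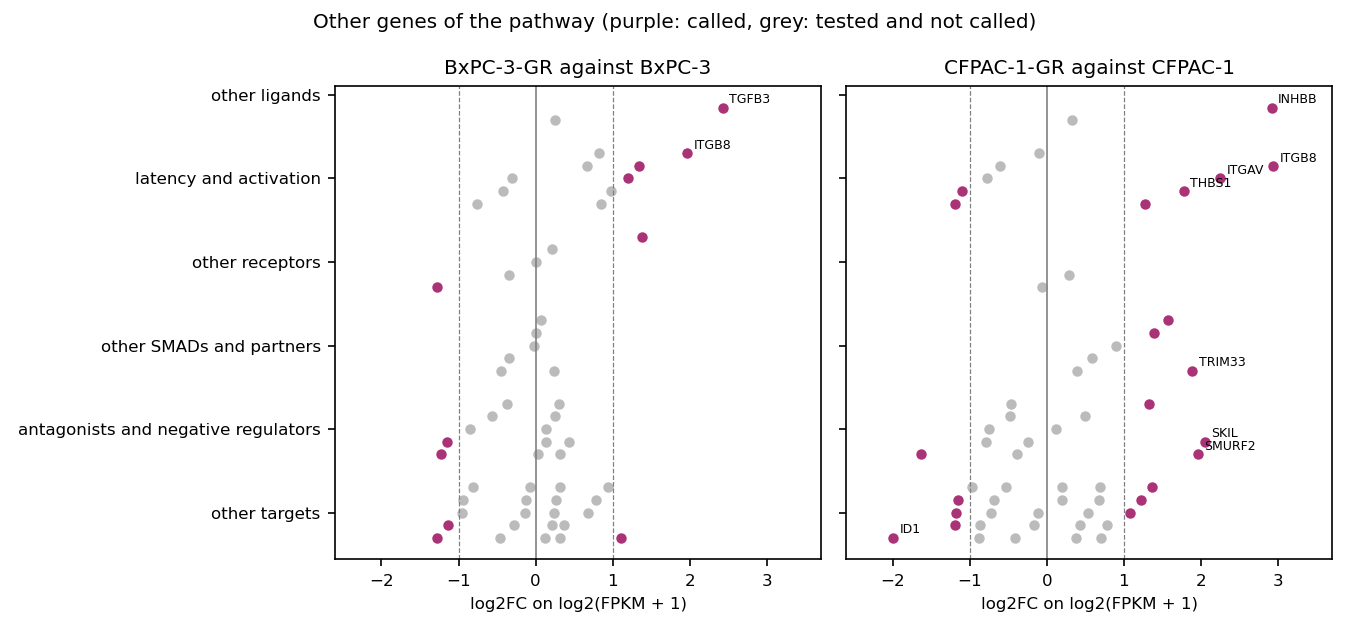
The log2FC on log2(FPKM + 1) (horizontal axis) of the other tested pathway genes in 6 groups by role (vertical axis, points spread within a group for legibility), in BxPC-3-GR (left) and CFPAC-1-GR (right). Purple points were called and grey points were tested and not called; dashed lines mark -1 and 1. TGFB3 (2.43) and ITGB8 (1.96) lead on the left, and ITGB8 (2.94), INHBB (2.92) and ITGAV (2.25) on the right.

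COL4A1, CTGF and FST were among the pathway genes that differed most between the lines of different origin. Of 61 pathway genes tested between the parental lines, 16 were higher and 20 lower in CFPAC-1 (59.0%, against 44.5% of all tested genes), and of 63 tested between the resistant lines, 14 were higher and 18 lower in CFPAC-1-GR (50.8%, against 17.1%). With the correction, 14 were higher and 18 lower between the parental lines, where 27% of all genes were called. COL4A1, a basement membrane collagen, had log2FC values of 4.86 (limma adjusted p = 9.51e-08) and 4.96 (adjusted p = 1.02e-07) in these comparisons, and the first was 4.55 after the correction. CTGF, a matrix-associated target, had 4.47 (limma adjusted p = 1.09e-07) and 4.15 (adjusted p = 3.83e-06), the first being 3.97 after the correction. FST had -4.26 (limma adjusted p = 2.76e-07) and -3.32 (adjusted p = 8.03e-06), the first being -3.98 after the correction.

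Targets of the pathway did not share a direction between the lines. SNAI2, an epithelial-mesenchymal transition factor (log2FC -3.52 between the parental lines, limma adjusted p = 1.29e-07, and -2.75 after the correction), was higher in BxPC-3, whereas COL4A1, CTGF and TGFBI were higher in CFPAC-1. LTBP2 was higher in CFPAC-1 (log2FC 3.42, limma adjusted p = 1.63e-07, and 2.90 after the correction). Between the resistant lines, INHBB was higher in CFPAC-1-GR (4.31, limma adjusted p = 4.34e-07), while COL7A1, an anchoring fibril collagen (-3.32, adjusted p = 1.45e-07), and LTBP1 (-2.53, adjusted p = 4.07e-07) were lower.

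For each gene whose line means differed by more than 1 on the log2 scale, the 2 most similar patterns among 12210 genes were found by the root mean square difference of centred log2(FPKM + 1) over the 12 libraries. TGFBR2 had the closest ones, SPATA5 (0.0707) and TMX4 (0.0745). TGFBI was followed by FBLN1 (0.108), the gene of the matrix protein fibulin-1, and FAM50B (0.116), TGFB1 by RPS6KA4 (0.117) and GPX1P1 (0.149), and TGFB2 by MYH10 (0.144), a nonmuscle myosin gene, and CACNG4 (0.152). The patterns of INHBA, with AC006058.1 (0.192) and SLC26A2 (0.237), and of TGFBR1, with AL390728.6 (0.219) and Z68871.1 (0.220), had no match as close. SMAD2, SMAD3 and SMAD7 varied over 0.91, 0.28 and 0.37 between line means and were not matched.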

How the data were processed

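Total RNA of 12 libraries, 3 per line, was sequenced on an Illumina NovaSeq. The authors deposited FPKM values for 58302 genes, made with GRCh38 and Ensembl release 91 according to the methods. The submitters' processing notes name Trimmomatic 0.27, FastQC 0.10.1, TopHat2 2.0.8 and the builds hg19 and GRCh38, with no role given, and the counting program and its use of strand are not given in the sources used here. Depth was inferred from the steps between low FPKM values of processed pseudogenes. The methods name DESeq2, which needs counts, so limma 3.58.1 in R 4.3.3 was used on log2(FPKM + 1) for genes whose mean over the libraries compared reached 1 FPKM, without a block. Called genes had a Benjamini-Hochberg adjusted p below 0.05 over all genes tested and an absolute log2FC above 1. The labels do not say whether replicates were separate cultures, so p-values measure the spread between these libraries, which may be technical.

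GC content (longest transcript) and length (joined exons) were taken from GENCODE release 29, in which 58039 genes were found. The correction fitted splines with 5 degrees of freedom to the deviations of each library and also removes any difference between lines that follows GC content or length. It was fitted over all genes on log2(FPKM + 1), so it can overshoot for low genes, whose change that scale understates. The same-numbered replicates of different lines had correlations between -0.134 and 0.0895 in their deviations, so the numbers were not taken to pair them. Named genes were the 9 genes, SMAD4, in each of 4 comparisons the 3 called pathway genes with the largest absolute log2FC in each direction without overlap of the lines, and the 2 nearest patterns of each gene. LTBP1, LTBP3, LTBP4, FURIN and THBS1 in BxPC-3-GR and THBS1, COL1A1, INHA, ZFYVE9 and TRIM33 in CFPAC-1-GR were named after their values were seen. The genes and the lists were chosen with earlier results of these data known. Alternatives were a pseudocount of 0.1, other minimum means, other scalings, all 12 libraries in 1 fit, a replicate block, protein-coding genes only, a mean trend and each library left out. A pseudocount of 0.1 with a minimum of 0.1 FPKM, the correction with that minimum and the corrected TGFB2 share were added after seeing the data. The procedure was tested on simulated data. 1 further gene of the naming rule is not reported here. Quantitative PCR and protein measurements were not analysed here.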

Additional observations from a re-analysis of the deposited data

Results flagged for a closer look

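By the interaction term over 12 libraries, 3 of the 9 genes were called (33.3%), against 38% of all 12210 tested genes. For these 3 the uncorrected response to GEM selection differed between the CFPAC-1 and BxPC-3 lines. INHBA had an interaction of 3.38 (limma adjusted p = 1.31e-08), with every BxPC-3-GR library below every BxPC-3 library and every CFPAC-1-GR library above every CFPAC-1 library. TGFBR2 had an interaction of 1.66 (limma adjusted p = 1.04e-08) and the same directions in the pairs. TGFB1 had an interaction of -1.62 (limma adjusted p = 2.15e-07), with the resistant libraries lower in both pairs. Corrected for GC content and length, the values were 2.30, 1.53 and -0.45, the last under the log2FC criterion.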

How the results depend on the processing

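Under the alternatives, 187 counts of called genes stayed within 1.5 times and 13 did not, and of the log2FC values of the 9 genes 736 kept direction and call, 39 turned, 11 gained and 15 lost a call. The cause of these moves was not tested. In CFPAC-1-GR, the correction for GC content and length left 1 of the 3 genes called, also with the replicate block, but all 3 with a minimum of 0.1 FPKM, and gave 5 called pathway genes in place of 21, also with the block, or 11 with that minimum. The TGFB2 share with the correction, chosen after seeing the data, was 7.03% in BxPC-3, 10.5% in BxPC-3-GR, 49.4% in CFPAC-1 and 59.4% in CFPAC-1-GR, or 7.89%, 11.6%, 41.5% and 61.9% with that minimum. That minimum and a pseudocount of 0.1 together gave 5 and 34 there, 18 pathway genes in BxPC-3-GR (11 otherwise), and in the interaction 5 of the 9 genes (3 otherwise), as did the pseudocount alone. Between the parental lines, 3 of 5 calls were left with the correction, with the block beside it and with the lower minimum. With each library left out, the counts of the 9 genes were 1 in BxPC-3-GR, 3 in CFPAC-1-GR, 5 to 6 between the parental lines, 3 between the resistant lines and 3 to 4 in the interaction.

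With the correction, alone and with the block, SMAD2 (-0.25) and SMAD3 (-0.0257) turned in BxPC-3-GR, TGFB2 (-0.39) in CFPAC-1-GR, and TGFB2 (-0.65), TGFBR1 (-0.13), SMAD2 (-0.44) and SMAD7 (0.65) in the interaction. With the correction and a minimum of 0.1 FPKM, SMAD2 (-0.14) and SMAD3 (-0.0289) turned in BxPC-3-GR, TGFB2 (-0.0673) and SMAD2 (-0.29) in CFPAC-1-GR, SMAD2 (0.0721) and SMAD7 (-0.48) between the parental lines, and TGFB2 (-0.37), SMAD2 (-0.17), SMAD7 (0.41) and TGFBI (-0.0137) in the interaction. Median-of-ratios scaling turned SMAD3 between the parental lines (0.0619) and SMAD3 (-0.0291) and TGFBI (-0.29) in the interaction, and upper-quartile scaling turned TGFBI there (-0.014). With each library left out, TGFBR1 ranged from -0.33 to 0.16 and SMAD3 from -0.0254 to 0.0503 in BxPC-3-GR, TGFBR1 from -0.47 to 0.0532 between the resistant lines and TGFBI from -0.0435 to 0.12 in the interaction.

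Over all genes, the correction brought the calls from 3880 to 1134 in CFPAC-1-GR (63.7% and 75% of them up), from 5274 to 3195 between the parental lines and from 4643 to 2386 in the interaction (62.1% and 68.5% up). Median-of-ratios scaling moved the median log2FC of all genes from 0.13 to -0.01 in CFPAC-1-GR (52.4% of calls up), from -0.10 to 0.02 between the parental lines and from 0.22 to -0.03 in the interaction (46.7% up), and it took TGFBR2 in CFPAC-1-GR under the criterion (0.98). A pseudocount of 0.1 gave 1429 calls in BxPC-3-GR, and with a minimum of 0.1 FPKM the calls were 2665 there, 8320 in CFPAC-1-GR, 10503 between the parental lines, 6128 between the resistant lines and 9150 in the interaction. The replicate block alone changed no call of the 9 genes and gave 908, 3883, 5279, 2118 and 4644 calls over all genes. TGFBR1, SMAD2 and SMAD7, and INHBA in CFPAC-1, lay near or below 1 FPKM, where depth limits the precision of a value. At such levels the correction can also overshoot, so the sign after it is uncertain for TGFBR1, SMAD2 and SMAD7.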
